A study of Homo sapiens with 18 samples.

Results

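Interleukins, leukemia inhibitory factor (LIF) and colony stimulating factors are secreted signalling proteins. Here 10 of their genes were examined in triple-negative breast cancer (TNBC) cells transfected with small interfering RNA (siRNA) against ASAP1. The genes were IL6, LIF, IL11, IL1A, IL1B, IL24, IL32, IL33, CSF2 and CSF3, taken by gene symbol as a fixed list. They were read by 11 of the 21111 probes (10 of 19289 gene symbols), since CSF3 has 2 probes. BT549 and Hs578T are mesenchymal-like and SUM149PT is a basal-like established human TNBC cell line. Every line was transfected with 50 nM of an siRNA pool against ASAP1 (siASAP1) or with a control siRNA (siCtrl), which the study's methods describe as a pool of kinase siRNAs and its results as non-targeting. Lysates were collected 72 h later from 3 replicate cultures a group, 18 libraries in 6 groups. All groups thus carried an siRNA and the transfection reagent, and no untransfected cells were analysed here. In TempO-Seq, a pair of oligonucleotides is ligated on each target RNA and the ligated product is counted, so a probe reads a short stretch of the transcript.

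IL6, LIF and IL11 belong to a family that signals through receptors sharing the subunit IL6ST and through the JAK kinases and STAT3. IL1A, IL1B and IL33 are members of the interleukin-1 family. IL1A and IL1B bind IL1R1, IL33 binds IL1RL1, both receptors pair with IL1RAP, and the adaptor MYD88 and the IRAK kinases carry the signal to NF-kB, which in turn drives the genes of several cytokines. IL24 is a relative of IL10 that acts through IL20RB-containing receptors, and IL32 is an inflammatory cytokine without a sequence relative in the other families. CSF2 and CSF3 stimulate the formation of granulocytes and macrophages. In breast cancer cells, IL6, IL1A and IL1B are known for their release as inflammatory mediators.

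In GRCh38 with the GENCODE 29 annotation, all 10 are protein-coding genes. IL6 lies on chromosome 7 (22725884 to 22732002, plus strand), IL32 on chromosome 16 (3065297 to 3082192, plus strand) and LIF on chromosome 22 (30240447 to 30246851, minus strand). IL1A (112773915 to 112784590) and IL1B (112829751 to 112836903) are neighbours on the minus strand of chromosome 2, with 45.16 kb between them. IL33 is on chromosome 9 (6215786 to 6257983), IL24 on chromosome 1 (206897443 to 206904139), IL11 on chromosome 19 (55364389 to 55370463), CSF2 on chromosome 5 (132073790 to 132076170) and CSF3 on chromosome 17 (40015361 to 40017813). Probes are listed without their sequence, so the exon that each one reads was not determined here.

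The 3 genes that carry the results below are IL6, IL1A and IL1B, and the DNA before their RefSeq transcript starts is shown because they met the limits for higher levels together in SUM149PT. Each stretch starts 250 bases before the RefSeq transcript start (GRCh38.p14, listed 5′ to 3′ on the gene's strand) and ends at the base before the next GENCODE 29 exon of the gene. For IL1A and IL1B this lies outside the annotated gene, while the IL6 stretch lies in an intron of a longer annotated transcript that begins at base 22725884. Capitals mark matches to transcription factor motifs. They mark C/EBP and NF-kB matches in IL6 (chr7:22726950-22727146), TATA box and C/EBP matches in IL1A (chr2:112784591-112784743), and C/EBP and STAT matches in IL1B (chr2:112836904-112837029).
IL6: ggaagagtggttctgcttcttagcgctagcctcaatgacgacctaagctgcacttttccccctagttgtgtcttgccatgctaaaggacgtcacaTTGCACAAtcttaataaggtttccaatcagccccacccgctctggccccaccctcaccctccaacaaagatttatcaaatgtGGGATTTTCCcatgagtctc
IL1A: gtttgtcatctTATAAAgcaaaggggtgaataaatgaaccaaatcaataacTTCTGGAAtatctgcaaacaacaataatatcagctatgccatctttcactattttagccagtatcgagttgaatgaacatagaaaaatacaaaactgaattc
IL1B: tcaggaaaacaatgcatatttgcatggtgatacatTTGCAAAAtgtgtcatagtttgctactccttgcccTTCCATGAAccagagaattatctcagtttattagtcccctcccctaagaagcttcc

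The motifs were searched on both strands of the 250 bases before each start. RefSeq promoters matched 8 of the 10 genes (11 promoters). The NF-kB consensus was found in IL6 at bases -73 to -64 from the start and in IL32, where 2 matches overlap between bases -99 and -89, and in 9.96% of all 35116 promoters. The AP-1 letters TGANTCA were found before both of the IL1A starts, at bases -12 to -6 of the one shown, and in IL11 at bases -96 to -90, against 6.57% of all promoters. The C/EBP letters TTNNGNAA are frequent, at 33.2% of all promoters, and were found in IL6, IL1A and IL1B. The STAT letters TTCNNNGAA were found in IL1B and CSF2 (6.57% of all), the CRE letters TGACGTCA in IL32 (1.65% of all) and the TATA box letters TATAAA in IL1A (10.7% of all). A match describes the letters of the DNA and is not a bound site.

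Low read counts limited which of these genes could be compared. The libraries held 4.63 to 12.5 M reads (median 6.63 M), and 1 read was worth 0.578 to 1.60 normalized counts, the read counts after division by the authors' size factors. At 3 reads, the floor used here, the normalized count was 1.73 to 4.80. ASAP1 itself was lower in all 3 siASAP1 libraries than in all 3 siCtrl libraries in BT549 (367, 730 and 783 against 1107, 966 and 944 normalized counts) and in Hs578T (782, 825 and 1262 against 1641, 1414 and 2698). In SUM149PT it was at 282, 468 and 184 in the siASAP1 libraries and at 1087 and 1314 in the libraries labelled siCtrl 1 and 3, but at 189 in the library labelled siCtrl 2. That library's ASAP1 level goes against its label, and values without it stand beside the SUM149PT results they touch.

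By the study's minimum of a mean normalized count of 10 over the 6 libraries of a line, BT549 expressed IL6 alone of the 10 genes. Hs578T expressed IL6, IL1A, IL1B and IL32, and SUM149PT those 4 and IL33. IL6 had reads in 18 of 18 libraries, IL32 in 16, IL1A and IL1B in 13 each, and LIF in 10. IL24 and IL33 had reads in 7 libraries each, CSF2 in 4, the probes CSF3_1592 and CSF3_25152 in 3 and 1, and IL11 in 1. The map of the 11 probes shows this split, with BT549 nearly empty outside IL6 and LIF.

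**Figure D1:**
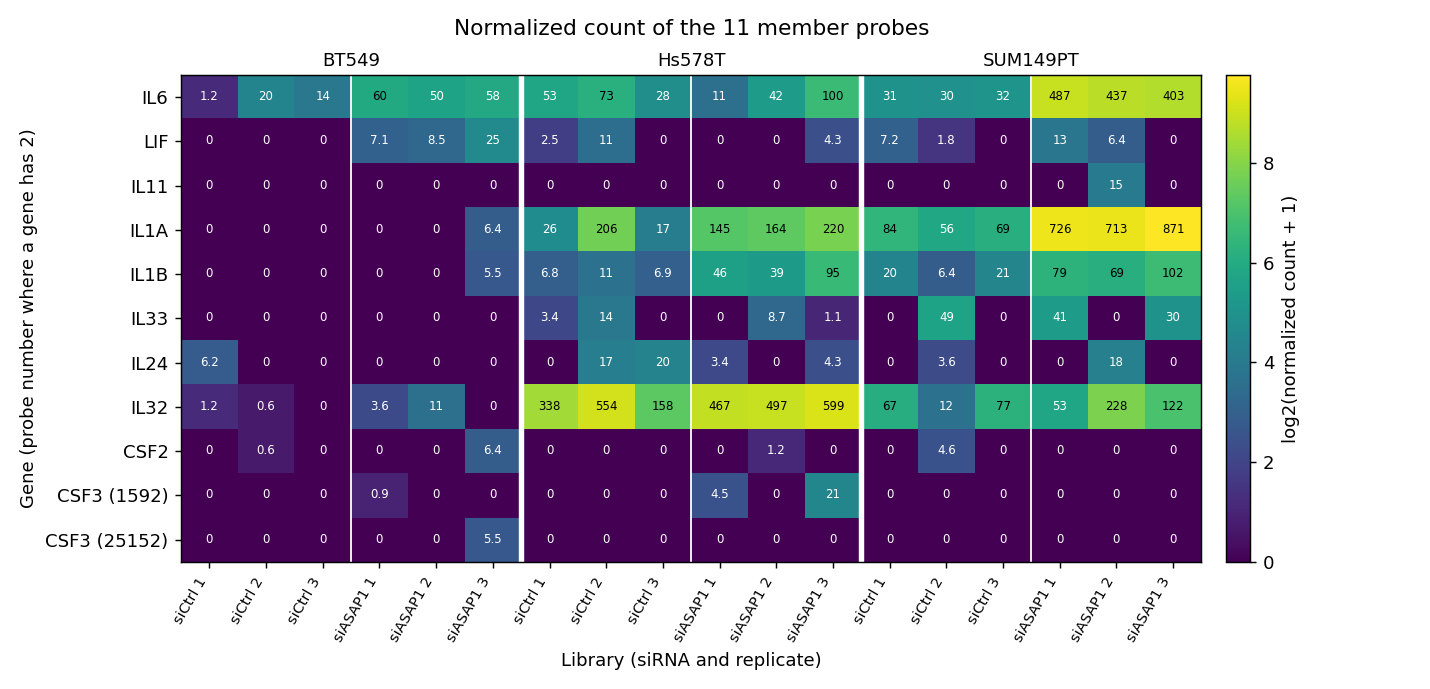
Normalized count of each of the 11 probes (rows) in each of the 18 libraries (columns, grouped by cell line and siRNA), written in the cell and coloured by log2(normalized count + 1). IL6 had reads in every column, IL32 was highest in Hs578T, IL1A was highest in SUM149PT siASAP1, and LIF had reads in 3 of 3 BT549 siASAP1 libraries and in 0 of 3 BT549 siCtrl libraries.

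In the siCtrl libraries the cell lines differed most in IL32 and IL1A. IL32 was at 338, 554 and 158 normalized counts in Hs578T, at 67.2, 11.8 and 76.7 in SUM149PT and at 1.25, 0.629 and 0 in BT549. The 3 lines did not overlap, with Hs578T highest and BT549 at the level of single reads. In a fit to the 9 siCtrl libraries, the Log2 FC of IL32 was 7.65 (SE 0.824, limma adjusted p = 0.00018) for Hs578T over BT549 and 4.73 (SE 0.824, adjusted p = 0.0026) for SUM149PT over BT549, the latter 5.56 (adjusted p = 0.00039) without the library labelled siCtrl 2. Since BT549 siCtrl held 2 IL32 reads in all, the ratio of pooled reads is loosely bounded, at 691 (95% counting interval 191 to 5711) for Hs578T and 85.1 (23.0 to 712) for SUM149PT. SUM149PT lay below Hs578T: the Log2 FC was -2.93 (SE 0.824, limma adjusted p = 0.031), and -2.09 (adjusted p = 0.045) without the library labelled siCtrl 2. The adjusted p of that difference ran from 0.015 to 0.13 over 17 alternatives, and it was above 0.05 without Hs578T siCtrl 1 (0.10), without Hs578T siCtrl 2 (0.13) and with a pseudocount of 0.1 (0.12).

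IL1A had no read in the 3 BT549 siCtrl libraries. It was at 26.2, 206 and 16.7 normalized counts in Hs578T and at 84.4, 56.5 and 68.7 in SUM149PT. Against the floor of 3 reads per library in BT549, its mean was at least 32.1-fold higher in Hs578T (limma adjusted p = 0.0019) and at least 27.1-fold higher in SUM149PT (adjusted p = 0.00074). The first bound rests on Hs578T siCtrl 2 and was 8.32-fold without it (adjusted p = 0.0032), and the other was 29.7-fold (adjusted p = 0.0015) without the library labelled SUM149PT siCtrl 2. Hs578T and SUM149PT overlapped, and their order rests on single libraries: the Log2 FC of SUM149PT over Hs578T was 0.59 (SE 0.877, adjusted p = 0.69), 1.67 without Hs578T siCtrl 2, -0.10 without Hs578T siCtrl 3 and 0.74 without SUM149PT siCtrl 2. IL1B was also at 0 in BT549 siCtrl and was at 6.75, 11.4 and 6.90 in Hs578T and at 20.0, 6.38 and 20.8 in SUM149PT, below the minimum of 10 over these 9 libraries, so it was not tested. With no such minimum, IL1B passed in both comparisons with BT549. It had reads there only through Hs578T and SUM149PT, so nothing is read from these passes. IL6 was the only gene of the list in reach in all 3 lines, with means of 51.1 ± 22.6 (SD, n = 3) in Hs578T, 31.2 ± 0.987 in SUM149PT and 11.8 ± 9.63 in BT549. BT549 did not overlap with the others, but its difference from Hs578T (Log2 FC 2.44, SE 0.849, adjusted p = 0.092) and from SUM149PT (1.85, SE 0.849, adjusted p = 0.18, or 1.87 and 0.16 without the library labelled siCtrl 2) did not pass. In a single fit of all 6 groups, which shares the spread of 18 libraries, IL6 did pass between Hs578T and BT549 (adjusted p = 0.040). Of 3 genes tested in each comparison, IL32 and IL1A passed (adjusted p under 0.05 and absolute Log2 FC over 1) in Hs578T against BT549, where 13.8% of all probes did, and in SUM149PT against BT549, where 18.2% did. Both genes reached the minimum of 10 only through Hs578T and SUM149PT (BT549 siCtrl means 0.626 and 0), so nothing is read from these counts against BT549. IL32 alone passed in SUM149PT against Hs578T, where 20.2% of all probes did.

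After siASAP1, IL6 was higher in SUM149PT and BT549. In SUM149PT its normalized count was 487, 437 and 403 in the siASAP1 libraries and 31.5, 30.1 and 32.0 in the siCtrl libraries. The groups were far apart and the spread within each was small, with 1016 reads against 75. The ratio of means was 14.2, and the Log2 FC 3.78 (SE 0.432, limma p = 2.24e-05, adjusted p = 0.067, exact permutation p = 0.1, the smallest that 3 against 3 libraries allow). In BT549 IL6 was at 60.4, 50.0 and 58.4 after siASAP1 and at 1.25, 20.1 and 14.0 after siCtrl, again without overlap. The ratio of means was 4.77 and the Log2 FC 2.68 (SE 0.886, limma p = 0.012, adjusted p = 0.55, exact permutation p = 0.1), and it was 1.68 without BT549 siCtrl 1, the library with a single IL6 read. In these bulk lysates, more cells that make a cytokine and more of its RNA per cell cannot be told apart.

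Hs578T did not follow for IL6. Its siASAP1 libraries were at 11.3, 41.6 and 100 normalized counts and its siCtrl libraries at 53.2, 72.6 and 27.6. The groups overlapped fully and the siASAP1 libraries spread widely, and the Log2 FC was -0.37 (SE 0.750, limma p = 0.64, exact permutation p = 0.8). The sign rests on siASAP1 1: without it the Log2 FC was 0.44. The cell line by treatment interaction of IL6 had an F test p of 0.0048 and an adjusted p of 0.40 (limma), with a Log2 FC in Hs578T minus that in BT549 of -3.04 and a Log2 FC in SUM149PT minus that in Hs578T of 4.15. A difference in IL6 response between the lines is therefore not established at an adjusted p under 0.05.

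**Figure D2:**
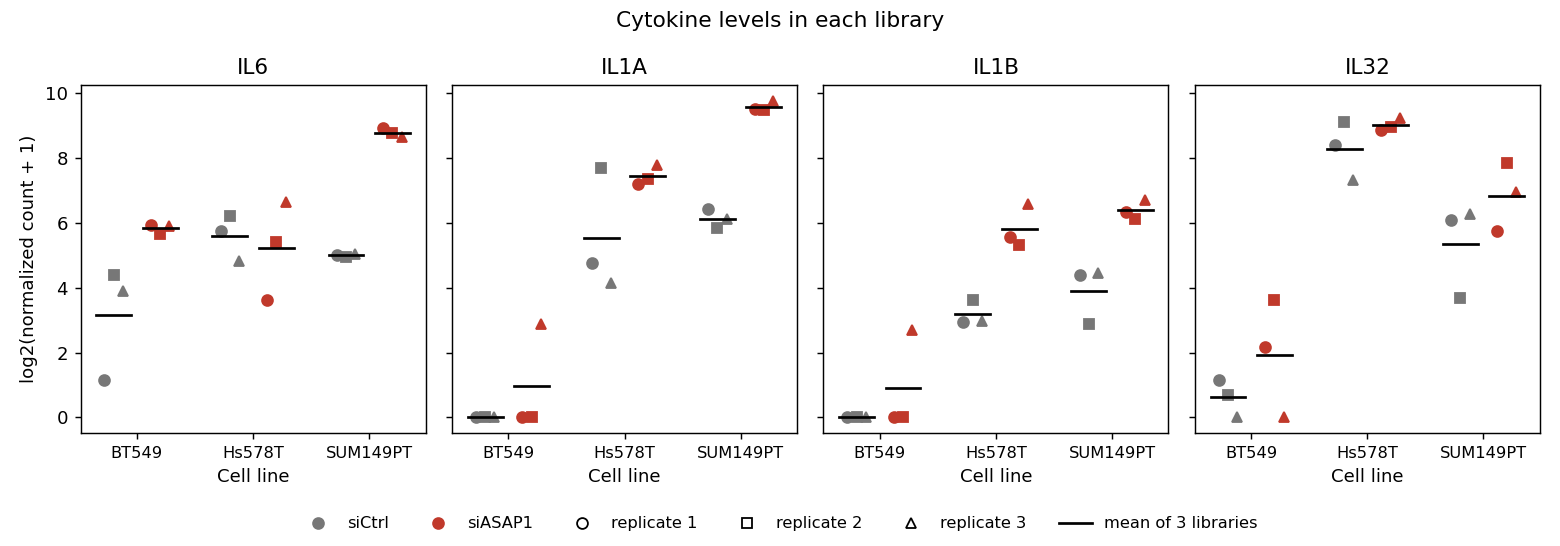
Level of IL6, IL1A, IL1B and IL32 in each library as log2(normalized count + 1), by cell line, with siCtrl in grey and siASAP1 in red, a symbol for each replicate number and a black line at the mean of 3 libraries. IL6 and IL1A of SUM149PT and IL6 of BT549 show separate groups, IL6 of Hs578T overlaps, and the Hs578T siCtrl 2 library reaches the siASAP1 level of IL1A.

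LIF, which acts through LIFR and IL6ST, was read 8, 9 and 27 times in the 3 BT549 siASAP1 libraries (7.11, 8.496 and 24.6 normalized counts) and had 0 reads in the 3 BT549 siCtrl libraries. The mean of 13.4 ± 9.74 (SD, n = 3) was at least 5.203-fold higher than the floor of 3 reads per library, and the exact permutation p was 0.1 (two-sided). Without siASAP1 3, the library with the most LIF, the bound was 3.03-fold. Its mean over the 6 BT549 libraries was under 10, so LIF was not among the probes tested. Fitted without that minimum, it had a Log2 FC of 3.65 (SE 1.01, limma adjusted p = 0.47). In the other lines LIF was near the floor and its groups overlapped, at 13.2, 6.41 and 0 after siASAP1 and 7.15, 1.82 and 0 after siCtrl in SUM149PT, and at 0, 0 and 4.27 against 2.53, 10.6 and 0 in Hs578T. IL11, the third ligand of this family, was read in the library SUM149PT siASAP1 2 alone (12 reads, 15.4 normalized counts).

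IL1A, an alarmin that is active without cleavage, showed the highest readings of its probe in SUM149PT after siASAP1. The siASAP1 libraries were at 726, 713 and 871 normalized counts and the siCtrl libraries at 84.4, 56.5 and 68.7. No library of one group came near the other, the ratio of means was 11.02 and the Log2 FC 3.46 (SE 0.408, limma p = 2.82e-05, adjusted p = 0.067, exact permutation p = 0.1). In Hs578T the siASAP1 libraries were at 145, 164 and 220 and the siCtrl libraries at 26.2, 206 and 16.7. The libraries siCtrl 1 and 3 lay below all siASAP1 libraries, while siCtrl 2 lay among them. The Log2 FC was 1.91 (SE 0.786, limma p = 0.036, adjusted p = 0.92, exact permutation p = 0.3). It was 2.99 without siCtrl 2 and 1.22 without siCtrl 3, and p stayed under 0.05 in only 1 of 6 fits that left out a library, the one without siCtrl 2. BT549 had IL1A reads in siASAP1 3 alone (7 reads).

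IL1B, whose protein is cut by CASP1 before release, was the member that met the limits in Hs578T with the smallest p. It was at 46.5, 39.3 and 94.9 normalized counts after siASAP1 and at 6.75, 11.4 and 6.90 after siCtrl. The groups did not overlap, the ratio of means was 7.21 and the Log2 FC 2.64 (SE 0.619, limma p = 0.0018, adjusted p = 0.71, exact permutation p = 0.1). In SUM149PT it was at 79.4, 69.2 and 103 after siASAP1 and at 20.0, 6.38 and 20.8 after siCtrl, also apart. The ratio of means was 5.32 and the Log2 FC 2.48 (SE 0.695, limma p = 0.0073, adjusted p = 0.36, exact permutation p = 0.1). In BT549, IL1B was read 6 times in siASAP1 3 and in no other library.

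IL33, the nuclear alarmin of the family, had reads in some SUM149PT libraries of each siRNA and none in the others. It was at 41.0, 0 and 30.2 normalized counts after siASAP1 and at 0, 49.2 and 0 after siCtrl, where the single high reading is in the library labelled siCtrl 2. The Log2 FC was 1.57 (SE 2.18, limma adjusted p = 0.84), and 3.45 (adjusted p = 0.36) without that library. Hs578T held 0, 8.67 and 1.07 after siASAP1 and 3.38, 13.9 and 0 after siCtrl, and BT549 held no IL33 read.

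IL32 readings overlapped between siASAP1 and siCtrl in all 3 lines. In Hs578T they were 467, 497 and 599 normalized counts after siASAP1 against 338, 554 and 158 (Log2 FC 0.74, SE 0.431, limma adjusted p = 0.92). In SUM149PT they were 52.9, 228 and 122 against 67.2, 11.8 and 76.7 (Log2 FC 1.49, SE 0.873, limma adjusted p = 0.60), and the Log2 FC was 0.66 without the library labelled siCtrl 2, which had the lowest IL32. In BT549 they were 3.56, 11.3 and 0 against 1.25, 0.629 and 0, too low to test. IL24, a cytokine studied for growth arrest of tumor cells, was at 3.40, 0 and 4.27 in Hs578T after siASAP1 and at 0, 17.1 and 19.7 after siCtrl, with overlap. In SUM149PT it was read in replicate 2 alone of each group (17.9 after siASAP1 and 3.64 after siCtrl), and in BT549 in siCtrl 1 alone (6.24).

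The colony stimulating factors were at the edge of detection. The probe CSF3_1592 was at 4.53, 0 and 21.3 normalized counts in Hs578T after siASAP1 and at 0 in the 3 siCtrl libraries, a mean at least 3.26-fold higher than the floor of 3 reads per library (exact permutation p = 0.4, two-sided, overlapping). That bound rests on siASAP1 3, and without it the mean of 2.27 lay under the floor of 2.65. Elsewhere it was read once, in BT549 siASAP1 1. The other probe of the gene, CSF3_25152, was read 6 times in BT549 siASAP1 3 and in no other library, so the 2 probes had no library in common. CSF2 had 15 reads in 4 libraries, of which 7 were in BT549 siASAP1 3. The 6 reads of CSF3_25152, the 7 of CSF2, the 7 of IL1A and the 6 of IL1B thus fell in the same BT549 library, which also had the most LIF.

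By the study's limits for regulated genes (unadjusted p under 0.05 and absolute Log2 FC over 1), 3 of the 5 genes tested in SUM149PT met them (IL6, IL1A and IL1B), all upward, where 5.27% of all probes did so upward. In Hs578T they were IL1A and IL1B of 4 tested, against 1.34% of all probes, but IL1B reached the minimum only through its siASAP1 libraries (siCtrl mean 8.36), so nothing is read from that count, and in BT549 the 1 gene tested, IL6, against 3.28%. IL6, IL1A and IL1B each lacked overlap in SUM149PT, as 8.87% of all probes did upward, IL1B alone in Hs578T (6.31% of all probes) and IL6 in BT549 (7.35%). No member tested was lower by these limits in any line, where 3.69% (BT549), 1.44% (Hs578T) and 4.29% (SUM149PT) of all probes were. With so few members tested, nothing is read from that. After adjustment over all probes none passed in a single line with limma, nor did any other probe (0, 0 and 0 probes in BT549, Hs578T and SUM149PT, with 754, 502 and 1025 at an unadjusted p under 0.05). The voom weights of limma gave 8, 0 and 0 probes, of which none was a member. Without the library labelled siCtrl 2, IL6 (Log2 FC 3.76), IL1A (3.32) and IL1B (1.97) all still met the limits in SUM149PT, and the adjusted p of IL6 and IL1A was 0.032. Over 14 alternatives it ran from 0.016 to 0.98 for IL6 and from 0.032 to 0.98 for IL1A.

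**Figure D3:**
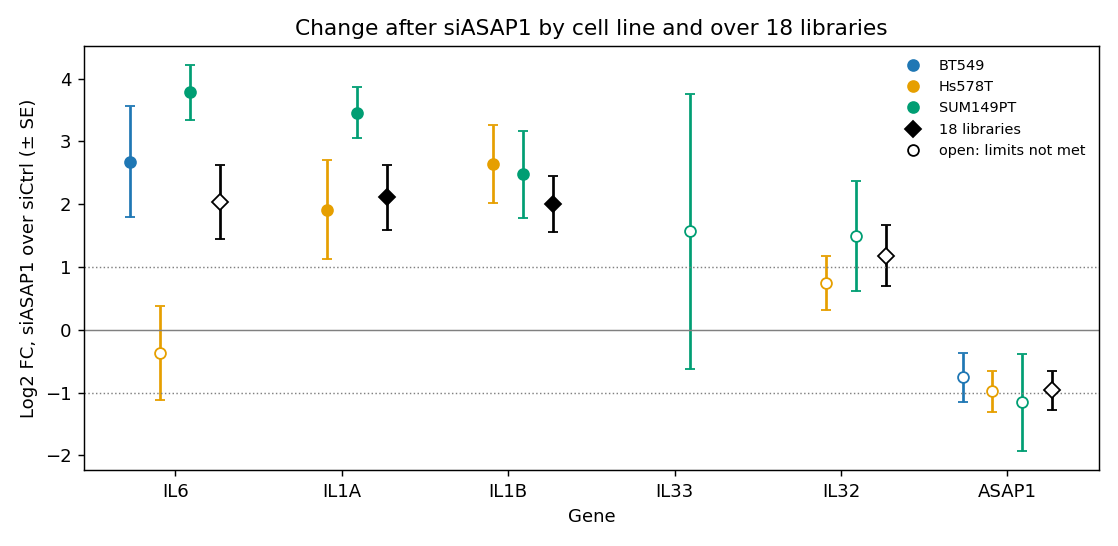
Log2 FC of siASAP1 over siCtrl with its SE for the members tested and for ASAP1, by cell line (circles) and over the 18 libraries (black diamonds). Filled symbols met the limits, which are p under 0.05 and absolute Log2 FC over 1 within a line and adjusted p under 0.05 over the 18 libraries. SUM149PT stands at 3.78 for IL6 and 3.46 for IL1A, and IL6 of Hs578T at -0.37.

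With all 18 libraries fitted together and the line as a covariate, IL1B (Log2 FC 2.005, SE 0.449, limma adjusted p = 0.026) and IL1A (2.11, SE 0.516, adjusted p = 0.042) rose, 2 of 4 members tested against 0.678% of all probes that rose. IL1B reached the minimum mean of 10 only through its siASAP1 libraries (siCtrl means 0 in BT549, 8.36 in Hs578T and 15.7 in SUM149PT), so nothing is read from that count. IL6 (2.03, SE 0.588, adjusted p = 0.083) and IL32 (1.18, SE 0.487, adjusted p = 0.23) did not pass, and without the library labelled SUM149PT siCtrl 2 they stood at 1.90 (adjusted p = 0.13) and 0.92 (adjusted p = 0.33). A replicate block (the replicate number within each line as a further term) gave an adjusted p of 0.090 for IL1B and 0.12 for IL1A, so neither passed. The call of IL1A held only without BT549 siCtrl 2, BT549 siASAP1 1, BT549 siASAP1 2 or Hs578T siCtrl 2, and without any of the other 14 libraries its adjusted p lay between 0.051 and 0.089. Without the library labelled SUM149PT siCtrl 2 it was 0.069 for IL1A and 0.048 for IL1B. IL1B lost its call without BT549 siASAP1 3, Hs578T siCtrl 1, Hs578T siASAP1 1, Hs578T siASAP1 3 or SUM149PT siASAP1 3 (adjusted p 0.051 to 0.063). Over all alternatives the adjusted p of IL1A ran from 0.0032 to 0.12 and that of IL1B from 0.0091 to 0.090. Of the 4 members, 0 had an interaction with an adjusted p under 0.05 by limma with or without voom weights, with IL6 alone at an unadjusted p under 0.05, and 0.00955% of all probes had one.

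The ASAP1 level and the cytokine level did not fall on a single line. Centred on the cell line mean, Pearson's r with ASAP1 over the 18 libraries was -0.45 for IL1A, -0.40 for IL6, -0.31 for IL1B and -0.07 for IL32, given as a description since libraries share their siRNA and line. The library labelled SUM149PT siCtrl 2 had ASAP1 at 189 normalized counts, as low as the siASAP1 libraries, and IL6 at 30.1, IL1A at 56.5 and IL1B at 6.38, each below the other siCtrl libraries of that line. Hs578T siASAP1 3 kept the most ASAP1 of its group (1262) and had the highest IL6 (100), IL1A (220) and IL1B (94.9) of that line.

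**Figure D4:**
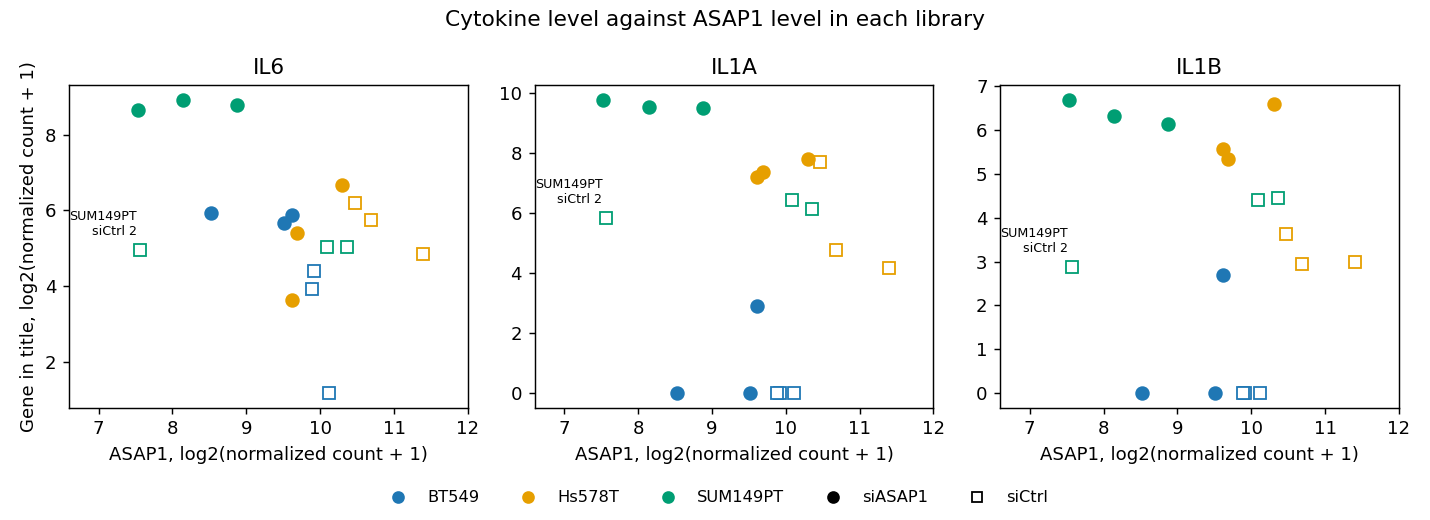
IL6, IL1A and IL1B against ASAP1 in each library, both as log2(normalized count + 1), coloured by cell line, with filled circles for siASAP1 and open squares for siCtrl. The labelled square is the SUM149PT siCtrl 2 library, with ASAP1 at 189 normalized counts beside SUM149PT siASAP1 circles at 184 to 468, IL6 and IL1A near the other SUM149PT siCtrl squares, and IL1B below them (6.38 against 20.0 and 20.8).

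Among the 4 members tested over all libraries, IL1A and IL1B were most alike. Their line-centred log2 values had Pearson's r of 0.89 over 18 libraries, and each was the most similar of 10474 probes to the other. IL6 followed IL1A (r = 0.63) and IL1B (0.51) less closely, and IL32 had r of 0.33 to 0.42 with the other members. The probes most like IL6 were SIK1 (0.92), a salt-inducible kinase, TNFSF15 (0.89), a cytokine of the tumor necrosis factor family, and PDGFB (0.89), a chain of platelet-derived growth factor. After IL1B, those most like IL1A were ALG12 (0.84) and PANX2 (0.82), and after IL1A those most like IL1B were NLRP10 (0.85) and KIAA1217 (0.85). IL32 was closest to TTC22 (0.84), WDR48 (0.83) and MRS2 (0.82). These are the highest of many correlations over libraries that share lines and siRNAs.

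The genes that make, receive and relay these signals were examined as lists. Of 16 receptors and decoys, 9 genes (10 probes) were tested over the 18 libraries, and 0 probes passed an adjusted p of 0.05 with limma, with or without voom weights, while 3 had an unadjusted p under 0.05, as 15.8% of all probes did. These were IL1RL1, the IL33 receptor (Log2 FC 1.95, SE 0.529, adjusted p = 0.065), IL1RAP, the shared partner of the interleukin-1 receptors (0.87, SE 0.251, adjusted p = 0.079), and LIFR (-0.71, SE 0.276, adjusted p = 0.20). IL1RL1 reached the minimum mean only through its siASAP1 libraries, so nothing is read from its part in the count of 3. Its siCtrl libraries were at 0 normalized counts in BT549, 5.71 to 19.7 in Hs578T and 4.29 to 19.1 in SUM149PT. The median Log2 FC of the list was 0.08, beside 0.02 for all probes. Of the line-by-line limits, IL1RAP met them upward in BT549 (1 of 7 probes, against 3.28% of all), and IL1RL1 and IL1RN, the antagonist that blocks IL1R1, met them upward in SUM149PT (2 of 9, against 5.27% of all). IL1RN was at 3.64 to 25.6 normalized counts in SUM149PT siCtrl libraries and at 55.6 to 126 after siASAP1 (Log2 FC 2.86, SE 0.837, limma adjusted p = 0.38), and its Log2 FC was 2.11 without the library labelled siCtrl 2.

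Of 23 other interleukins and haematopoietic cytokines, 8 were tested and 1 rose, beside 0.678% of all probes. The gene was IL23A, a subunit of interleukin-23 (Log2 FC 2.09, SE 0.508, limma adjusted p = 0.042, and 0.060 with the replicate block). It lost its call without any of 14 libraries, the one labelled SUM149PT siCtrl 2 among them (adjusted p = 0.068), and kept it in 4 of 18 such fits. Its level after siASAP1 was 404 to 476 normalized counts in SUM149PT against 54.7 to 257 after siCtrl, and it stayed at or below 20.1 in BT549 and 12.1 in Hs578T. The list's median was 0.99, beside 0.02 for all probes, with 7 of 8 above 0. IL36B reached the minimum only through siASAP1 libraries (siCtrl means 0.629, 18.8 and 0 in BT549, Hs578T and SUM149PT), so nothing is read from that count. Upward within a line, IL12A met the limits in BT549 (1 of 5 probes, against 3.28% of all), and IL23A and CNTF in SUM149PT (2 of 7, against 5.27%). IL12A had a BT549 siCtrl mean of 2.22, and CNTF kept its call in 2 of 6 fits without a library. Of the IL-1 maturation and receptor list, 13 of 19 genes (16 probes) were tested and 1 rose, again beside 0.678% of all probes. It was IRAK2, a kinase-like adaptor of the interleukin-1 receptor complex (Log2 FC 1.78, SE 0.276, limma adjusted p = 0.0030, and 0.045 with the replicate block), and it passed in all 18 fits that left out a library. IRAK2 was at 688 to 838 after siASAP1 against 186 to 214 after siCtrl in BT549, at 222 to 286 against 25.6 to 77.2 in SUM149PT, both without overlap, and at 317 to 821 against 235 to 353 in Hs578T, where the groups overlapped. The list's median was 0.23.

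In the JAK-STAT list, 12 of 17 genes (13 probes) were tested and 0 passed with limma, with or without voom weights, while 4 had an unadjusted p under 0.05, beside the 15.8% of all probes. CEBPB, a transcription factor of the C/EBP family, had a Log2 FC of 1.07 (SE 0.372, adjusted p = 0.15). The probe STAT6_11686 had 0.91 (adjusted p = 0.19) and PIAS3, an inhibitor of STAT proteins, -0.36 (adjusted p = 0.26). CEBPB was the only probe of this list to meet the line-by-line limits, in BT549, at 219 to 840 normalized counts after siASAP1 against 73.0 to 198 (Log2 FC 2.03, SE 0.573, limma adjusted p = 0.49). In Hs578T its Log2 FC was 0.89 (SE 0.259, limma adjusted p = 0.91). In SUM149PT the CEBPB groups overlapped, at 654 to 2651 against 366 to 1520 (Log2 FC 0.29, SE 0.726, limma adjusted p = 0.91). SOCS3, a feedback inhibitor induced by IL6 signalling, had a Log2 FC of 0.12 (SE 0.556, adjusted p = 0.94), with 0 to 8.97 normalized counts in SUM149PT siASAP1, where IL6 was at 403 to 487. IL6ST was at 121 to 396 in those libraries and IL6R, which binds IL6 itself, at 0 to 10.6. IL6ST was lower in SUM149PT siCtrl than in BT549 siCtrl (Log2 FC -2.75, limma adjusted p = 0.0042, and -3.36 without the library labelled siCtrl 2). SOCS3 was also lower there, at 0 to 5.47 normalized counts against 25.0 to 34.0. Its Log2 FC was -3.97 (limma adjusted p = 0.0085), and -4.87 without that library. SOCS3 reached the minimum mean only through BT549 and Hs578T, so nothing is read from that p. With SUM149PT siCtrl readings at or near 0, the size of its Log2 FC depends on the pseudocount. IL6R and SOCS3 were named here after their values were seen, as were IL6ST, IL1RN and the genes that met only the limits within a line.

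**Figure D5:**
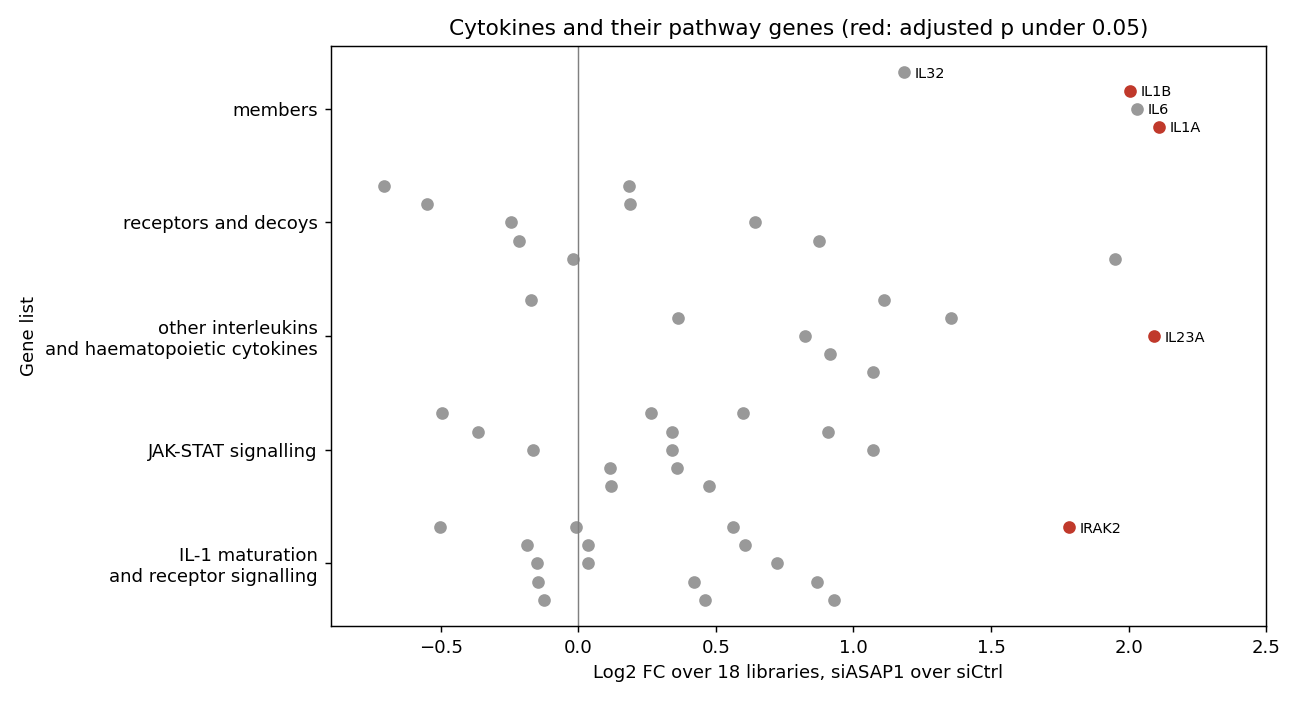
Log2 FC of siASAP1 over siCtrl over the 18 libraries for each tested probe of the members and of 4 pathway lists, with probes at an adjusted p under 0.05 in red and the vertical offset used only to separate points. IL1A, IL1B, IL23A and IRAK2 are red, and receptors and JAK-STAT genes are grey on both sides of 0.

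Markers of other cell types bear on where these transcripts came from. Of 8 leukocyte markers, all summed to at most 3.94 normalized counts in any Hs578T or SUM149PT library, and CD3E and NKG7 were at 0 in all 18. In BT549 the list summed to 15.5 to 61.4 after siASAP1 and 0 to 28.1 after siCtrl, mostly ITGAM (15.5 to 52.9 against 0 to 22.4), with PTPRC at 0 to 2.67, and its part in the BT549 readings of IL6 and LIF was not tested. The 6 epithelial markers summed to 21307 to 40063 in SUM149PT and at most 167 in BT549 and Hs578T. The mesenchymal list was highest in Hs578T, and its probe FN1_27231 rose over the 18 libraries (Log2 FC 1.04, SE 0.262, limma adjusted p = 0.048, and 0.16 with the replicate block), a call that held in 3 of 18 fits without a library. In SUM149PT siASAP1, where IL6, IL1A and IL1B met the limits, CDH1, KRT17 and 3 FN1 probes (2 without the library labelled siCtrl 2) also met them upward, as 5.27% of all probes did, and the probe VIM_18185 met them downward. Of 6 SUM149PT fits without a library, CDH1 kept its call in 3, KRT17 in 4 and FN1_2459 in 1. The other FN1 probes and VIM_18185 kept theirs in all 6. Of the 5 epithelial markers tested there, 3 were above 0 and 2 below: EPCAM had a mean of 20698 after siASAP1 against 29532 (Log2 FC -0.48) and KRT18 a Log2 FC of -0.19, neither meeting the limits. The part of these markers in the cytokine readings was not tested.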

How the data were processed

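The authors aligned TempO-Seq reads to probes, divided the counts by DESeq2 size factors and deposited log2 values of the normalized counts plus 1. The submitters' processing notes list bcl2fastq, Bowtie and DESeq2 without versions, and the build is not given in the sources used here. Groups and replicate numbers came from the labels, and the paper describes biological triplicates. The members and gene lists were chosen with earlier results of these data known. Members were found by the symbol before the probe number in the row name. Reads were recovered as whole multiples of a step per library (100% of values above 0 within 0.02 of a whole read). Chi-square over degrees of freedom between replicates was 10.1 to 247, more than sampling noise gives, and intervals and floors cover counting error only. Probes with a mean normalized count under 10 in the libraries of a fit were left out.

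The deposited log2 values were tested with limma 3.58.1 (R 4.3.3; lmFit, then eBayes with a trend), so Log2 FC is on the log2(normalized count + 1) scale and understates the change of low probes. The study's Wald test on counts was not run. Benjamini-Hochberg adjustment ran over all probes of a fit, and limits within a line were those of the study. Single probes used two-sided exact permutation tests. The fits were first tested on simulated data. Alternatives were other scalings, pseudocount, filters, the replicate number as a block, voom weights, a single fit of 6 groups, and each library left out. Over probes tested, same-numbered siASAP1 and siCtrl libraries had deviations correlated from -0.66 to 0.42, and from 0.10 to 0.42 in Hs578T. The main fits did not take the numbers as pairs, and the replicate block is given as an alternative. The rule for named genes took all members, ASAP1, list genes with an adjusted p under 0.05 over the 18 libraries or otherwise the 3 smallest p of a list, and the 3 probes most correlated with each tested member. GSDME was not matched in the table. Positions came from GENCODE 29 and promoters from RefSeq (GRCh38.p14). Figures were drawn with matplotlib 3.10.9 in Python 3.11.15.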

Additional observations from a re-analysis of the deposited data

How the results depend on the processing

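Leaving out 1 library at a time gave 1 to 3 members meeting the limits in Hs578T (2 with all libraries), 0 to 2 over the 18 libraries (2 with all) and 0 to 1 between siCtrl SUM149PT and siCtrl Hs578T (1 with all), and left the counts of BT549 (1) and SUM149PT (3) as they were. Of all probes, 158 to 634 met the limits in Hs578T, 325 to 2169 in BT549 and 501 to 2325 in SUM149PT. Over the 18 libraries 99 to 206 passed, and 1362 to 3103 between siCtrl SUM149PT and siCtrl Hs578T. These fits tested 9444 to 10505 probes each. With no filter on low counts, 2 members met the limits in BT549 (IL6 and LIF), where 921 of 15698 probes did. LIF had reads there only in the siASAP1 libraries, so nothing is read from that count. At the same setting 0 members passed over the 18 libraries, beside 111 of 17870 probes. Between siCtrl BT549 and each other siCtrl line 3 passed in place of 2 (IL1B added), beside 1531 of 16494 probes for Hs578T and 2037 for SUM149PT. IL1B had no read in BT549 siCtrl, so nothing is read from these counts. A minimum mean normalized count of 50 gave 0 in BT549, 1 in Hs578T, 2 in SUM149PT and 1 over the 18 libraries, since fewer probes were tested. Of all probes, 466 of 6510, 142 of 6449, 738 of 6855 and 246 of 7009 did so, in that order. A pseudocount of 0.1 gave 0 over the 18 libraries, beside 162 of 10475 probes. It also gave 0 between siCtrl SUM149PT and siCtrl Hs578T, beside 1844 of 10255, and the cause was not tested. With the replicate block, 0 members passed over the 18 libraries, and the other counts kept their value. Only 34 of 10475 probes passed over the 18 libraries with the block, against 182 without it, so nothing is read from the 0. In Hs578T each siASAP1 library correlated best with the siCtrl library of its own number, in BT549 replicate 3 alone did, and in SUM149PT none. With the replicate block in Hs578T, the limma adjusted p was 0.17 for IL1A and 0.11 for IL1B. The Log2 FC of IL6 in Hs578T ran from -1.08 to 0.44 (turned without siASAP1 1), and that of IL1A between siCtrl SUM149PT and Hs578T from -0.10 to 1.67 (turned without Hs578T siCtrl 3). IL6 passed over the 18 libraries with voom weights (adjusted p = 0.0499) and without Hs578T siASAP1 1 (0.022), within a range of 0.022 to 0.21. A single fit of 6 groups also gave 3 in place of 2 between siCtrl Hs578T and BT549 (IL6 added), beside 1730 of 10255 probes. Scaling by library totals moved the median Log2 FC of all probes to 0.30 in SUM149PT, 0.12 in Hs578T, 0.15 over the 18 libraries and -0.21 and -0.20 for siCtrl Hs578T and SUM149PT over BT549, and the same members met the limits. Low read counts limit LIF, IL24, IL33, IL11, CSF2 and CSF3, whose readings rest on at most 54 reads a library.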
